A study of Mus musculus with 6 samples.

Results

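Slc7a11 encodes xCT, the cystine carrier of the plasma membrane, and its level was followed in osteoclast precursors that received M-CSF with sRANKL or M-CSF alone. The gene was read from the probe sets that the authors' list of changed genes names Slc7a11. There was 1 such probe set among the 2890 deposited, and Slc7a11 was 1 of 522 named genes. It was selected on the same contrast that is described here, because the list names only probe sets that its authors called changed between these groups. Its difference between the groups is therefore given as a description, with no test.

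The data are 6 Mouse Gene ST expression arrays (Affymetrix) from 3 independent experiments. In each experiment bone marrow cells of 3 wild type SV129/BL6 mice aged 6 to 12 weeks were pooled and kept for 48 hours in 10 ng/ml M-CSF, the cytokine that keeps macrophage precursors alive. The mononuclear precursors, called monocytes in the sample records and enriched rather than pure, were then divided between a dish with 20 ng/ml M-CSF + 200 ng/ml sRANKL, a soluble form of the cytokine that directs precursors toward osteoclasts, and a dish with 20 ng/ml M-CSF alone. RNA was taken after 2 days, which gave 3 arrays per group and a partner from the same pool of cells for every array. No genetic change separated the groups, and all dishes had M-CSF.

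The xCT protein is the light chain of system xc-, which it forms with the 4F2 heavy chain encoded by Slc3a2. The exchanger brings cystine into the cell and releases glutamate. Cystine is reduced to cysteine, the limiting building block of glutathione, and glutathione lets the peroxidase GPX4 hold back ferroptosis, a form of death by lipid peroxidation that depends on iron. Transcription of Slc7a11 is known to be induced by ATF4 when amino acids are short and by NRF2 under oxidative stress. In osteoclast precursors, reactive oxygen species take part in RANKL signalling.

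The start of the gene is shown because ATF4, with a C/EBP partner, binds sites with the amino acid response core TGATGNAA, in which N is any base. Sequences are from RefSeq on GRCm38.p6, run 5′ to 3′ on the strand of the gene and end at the base before the transcription start. Capitals mark the core in either orientation. The Slc7a11 stretch lies at chr3:50443614-50443863 on the minus strand and covers the 250 bases before the start. Asns and Jdp2, the other genes of the pathway lists used here whose window held the core, are set beside it, at chr6:7693210-7693258 on the minus strand and chr12:85599357-85599415 on the plus strand, from the bases nearest the start. The Jdp2 stretch belongs to 1 of 3 windows of that gene.
Slc7a11: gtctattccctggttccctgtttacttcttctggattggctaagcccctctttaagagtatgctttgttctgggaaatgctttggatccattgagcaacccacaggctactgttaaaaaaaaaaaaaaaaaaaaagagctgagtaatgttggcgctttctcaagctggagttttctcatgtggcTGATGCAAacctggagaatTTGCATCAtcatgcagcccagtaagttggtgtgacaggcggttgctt
Asns: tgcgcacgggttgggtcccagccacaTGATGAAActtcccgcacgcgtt
Jdp2: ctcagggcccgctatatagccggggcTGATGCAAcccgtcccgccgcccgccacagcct

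The Slc7a11 window held 2 cores that face each other. The core at -66 to -59 reads forward on the strand of the gene, and the core at -47 to -40 reads on the opposite strand. At least 1 core was present in 3.45% of the 32851 RefSeq windows of this length, searched on both strands, and 2 or more were present in 13 windows (0.0396%). The core of the antioxidant response element to which NRF2 binds, TGACNNNGC, was found in 10.2% of windows, and the AP-1 site TGANTCA in 6.75%, and neither set of letters was in the Slc7a11 window. An AP-1 site TGACTCA that is followed directly by GC is counted for both motifs. Of 34 named genes on the pathway lists, 26 had a window. The amino acid response core was in the windows of 3 of them, Slc7a11, Asns and Jdp2, the antioxidant core in those of 4, Slc7a1, Gclm, Mgst1 and Asns, and the AP-1 site in those of 3, Slc7a1, Glrx and Cp. A match describes letters only, and binding was not measured.

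Slc7a11 was several times higher with sRANKL in every experiment. RMA intensities of Slc7a11 were 1357, 1015 and 674.6 with M-CSF + sRANKL, against 134.5, 96.54 and 110.7 with M-CSF alone, in Experiments 1, 2 and 3. All 3 values with sRANKL were above all 3 values with M-CSF alone, which the selection of the gene on this contrast favours. The lowest with sRANKL was 5.01-fold the highest with M-CSF alone. The mean intensity was 1015 ± 341 with M-CSF + sRANKL and 114 ± 19.2 with M-CSF alone (SD, n = 3 each). On the log2 scale the means were 9.93 ± 0.51 with M-CSF + sRANKL and 6.82 ± 0.24 with M-CSF alone (SD, n = 3 each). The plot of Slc7a11 by array shows the partners from each pool. These are bulk samples, in which more cells that express the gene and more RNA per cell cannot be told apart. Detection calls were not used here, so the level with M-CSF alone was not set against the background of the array.

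**Figure D1:**
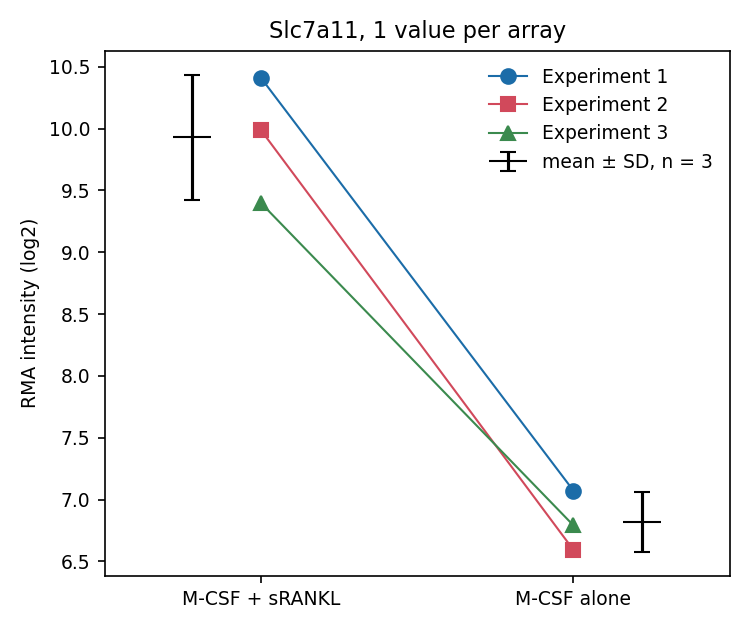
Slc7a11 RMA intensity on the log2 scale (vertical axis) for M-CSF + sRANKL and M-CSF alone (horizontal axis), with 1 point per array, lines that join the dishes of an experiment, and the mean ± SD of 3 arrays beside each group. The arrays with sRANKL sit between 9.40 and 10.41 and those with M-CSF alone between 6.59 and 7.07.

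Within experiments, the log2 difference of Slc7a11 of M-CSF + sRANKL over M-CSF alone was 3.33 in Experiment 1, 3.39 in Experiment 2 and 2.61 in Experiment 3. These correspond to 10.1-fold, 10.5-fold and 6.09-fold. The mean difference was 3.11 ± 0.44 (SD, n = 3), or 8.64-fold, and the spread of the 3 differences was small beside it. Leaving out 1 array at a time gave log2 differences between 2.87 and 3.38. The shortfall of Experiment 3 lay in the dish with sRANKL, which had the lowest of the 3 intensities, while the dish with M-CSF alone lay between the other two. The group with sRANKL was thus the more variable for this gene, with the highest value 2.01-fold the lowest, against 1.39-fold with M-CSF alone. The SD of the Slc7a11 log2 values with sRANKL, 0.51, compares with a median of 0.18 over the named genes, and 22 of them had a larger SD. With M-CSF alone the SD of Slc7a11, 0.24, lay near the median of 0.21.

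The place of the gene among the others follows from the same values. Ranked by log2 difference, Slc7a11 stood 24th of the 522 named genes, of which 341 were higher and 181 lower with sRANKL, and 31st of 2859 rows. Of all 2859 rows, limma called 44.9% higher with sRANKL and 33.2% lower, at a Benjamini-Hochberg adjusted p of 0.05. Within single experiments it stood 9th in Experiment 1, 24th in Experiment 2 and 36th in Experiment 3. The median log2 difference was 1.39 over the named genes that were higher and 0.42 over all rows, so the median row was itself higher with sRANKL in the values as deposited. Ctsk, the collagen-degrading cathepsin of osteoclasts, was 8.98-fold higher, Cd55, an inhibitor of complement, 8.76-fold, and Serpinb10, a serpin of hematopoietic cells, 8.65-fold, and these stood just above Slc7a11. Among those just below it were Il1rn, the antagonist of the interleukin-1 receptor, at 8.13-fold, and Il6, a cytokine of inflammation, at 7.90-fold. The differences between these neighbours were small beside the SD of 0.44 among the Slc7a11 experiments, so their order is not a separation. For scale, the named entry just inside the 2-fold limit of the list was Nfkbia at 2.0033-fold, the nearest unlisted probe set was at 1.9998-fold, and 100 unlisted probe sets were at least 2-fold higher.

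The other named genes come from the same list of changed probe sets, so that every named gene had to differ, and counts of them are no evidence about a pathway. Lists of 275 genes in 9 groups around cystine, glutathione, ATF4, NRF2, iron, reactive oxygen and glutamate were counted beside the 44.9% of all rows called higher and the 33.2% called lower. Of the 275 genes, 34 were named, 23 higher and 11 lower. Of all 522 named genes, which like these had to differ, 341 were higher and 181 lower. The 33 other than Slc7a11 had a median log2 difference of 1.30, against 1.17 over all named genes. Their limma adjusted p-values were between 0.000103 and 0.0061. Small p-values were favoured because the genes were named from this same contrast, so they are no support for a difference. The highest difference among the 33 was 2.88 for Aoah, below the 3.11 of Slc7a11. Slc3a2, the partner of xCT, and Gclc, Gpx4, Nfe2l2, Atf4, Hmox1, Nqo1 and Txnrd1 carry no name in the tables and were not analysed here.

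**Figure D2:**
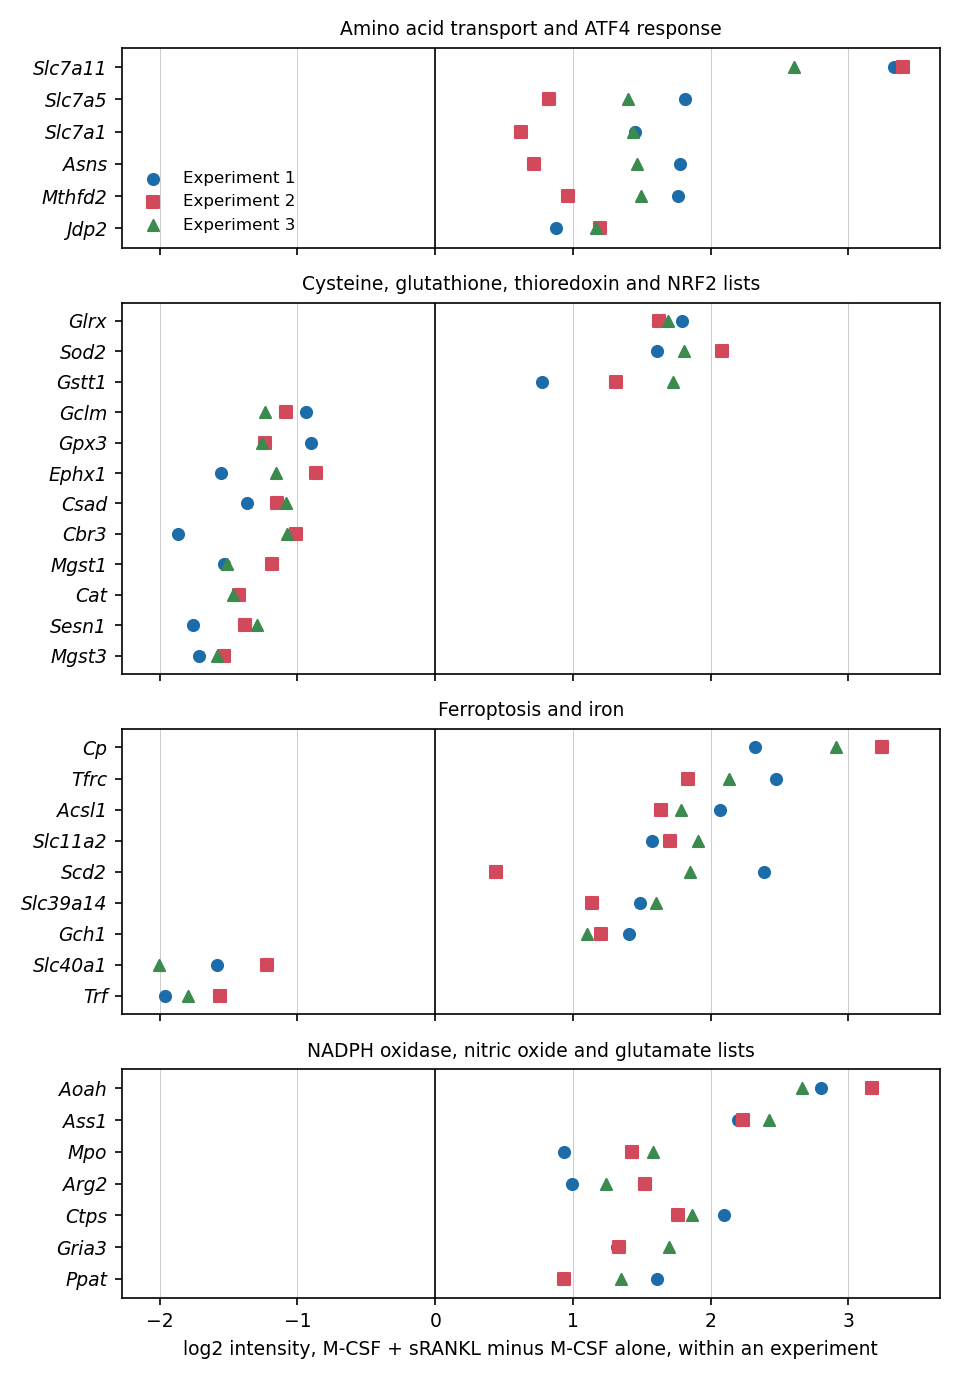
Log2 intensity of M-CSF + sRANKL minus M-CSF alone within each of 3 experiments (horizontal axis, 1 point per experiment) for Slc7a11 and the 33 other named genes of the pathway lists (rows, in 4 panels). Slc7a11 lies between 2.61 and 3.39, the genes of its own panel lie between 0.62 and 1.82, and Gclm, Cat, Mgst1 and Mgst3 are among those below 0.

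Beside Slc7a11, the amino acid transporters named were Slc7a5 and Slc7a1, of 30 listed. Slc7a5, the light chain that imports large neutral amino acids and shares the 4F2 heavy chain with xCT, had intensities of 853.1, 575.9 and 722.0 with M-CSF + sRANKL, against 242.1, 325.5 and 273.9 with M-CSF alone, a 2.54-fold difference. Slc7a1, a carrier of arginine and lysine, had 466.5, 311.0 and 430.7 with M-CSF + sRANKL, against 170.8, 201.8 and 159.4 with M-CSF alone, a 2.25-fold difference. Groups did not overlap for either gene, which the selection of named genes on this contrast favours. Both were smaller in fold than Slc7a11. In both, the smallest difference was that of Experiment 2, at 0.82 and 0.62 on the log2 scale, the experiment in which the difference of Slc7a11 was, by a narrow margin over Experiment 1, the largest.

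All 6 named genes of the 52 on the ATF4 list, Slc7a11 among them, were higher, beside 341 of all 522 named genes. Every named gene had to differ, so this count is no evidence about ATF4. Asns, which makes asparagine, had intensities of 1186, 1034 and 1364 with M-CSF + sRANKL, against 345.8, 628.0 and 494.7 with M-CSF alone. Mthfd2, a mitochondrial enzyme of folate metabolism, had 1011, 1019 and 1113 with M-CSF + sRANKL, against 298.3, 521.4 and 395.5 with M-CSF alone. These are 2.50-fold for Asns and 2.65-fold for Mthfd2, and their smallest differences again fell in Experiment 2, at 0.72 and 0.97. Jdp2, a bZIP factor that osteoclast formation needs, was 2.11-fold higher with its smallest difference, 0.88, in Experiment 1. Of the 6 genes, Slc7a11 was thus the one with its smallest difference in Experiment 3. The median log2 difference of the other 5 was 1.32.

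Of 36 genes on the NRF2 list, 4 were named, and Slc7a11 was the only one of them that was higher. Over all 522 named genes, 341 were higher and 181 lower. Gclm, the regulatory subunit of the enzyme that joins cysteine to glutamate in glutathione synthesis, had intensities of 1264, 1600 and 1397 with M-CSF + sRANKL, against 2417, 3400 and 3292 with M-CSF alone, or 0.471 of the M-CSF alone level. Cbr3, a carbonyl reductase, was at 0.401 and Ephx1, an epoxide hydrolase, at 0.437 of their level with M-CSF alone. The median log2 difference of these 3 was -1.19. The 4 NRF2-listed genes thus split, with Slc7a11 opposite in sign to the other 3. A steady sign across experiments is favoured by the selection of named genes, and the rest of the list could not be read.

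Named genes of the glutathione, cysteine, and thioredoxin and peroxide lists were more often lower than higher. All had to differ to be named, as did all 522 named genes, of which 341 were higher and 181 lower. Of all rows, 44.9% were called higher and 33.2% lower. Of 42 glutathione genes, 6 were named, with Glrx, which removes glutathione from proteins, at 3.25-fold and Gstt1, a glutathione transferase, at 2.41-fold higher. The 4 that were lower were Gclm, the secreted peroxidase Gpx3 at 0.457, and the microsomal transferases Mgst1 at 0.377 and Mgst3 at 0.327 of their level with M-CSF alone. Csad, which draws cysteine sulfinate into taurine, was the only named gene of 26 for cysteine, with intensities of 187.9, 175.1 and 202.0 with M-CSF + sRANKL, against 484.5, 388.3 and 428.9 with M-CSF alone. Of 25 genes of the thioredoxin and peroxide list, Sod2, the mitochondrial superoxide dismutase, was 3.57-fold higher, while Cat, catalase, at 0.368 and Sesn1, a sestrin, at 0.359 were lower. Cat had intensities of 930.7, 1059 and 947.1 with M-CSF + sRANKL, against 2517, 2845 and 2617 with M-CSF alone. Slc7a11 and Cat thus differed in opposite directions.

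Of 38 genes of ferroptosis and iron, 9 were named, 7 higher and 2 lower. Over all 522 named genes, 341 were higher and 181 lower, so the count says nothing particular about iron. Tfrc, the transferrin receptor through which iron enters, had intensities of 1165, 1199 and 1472 with M-CSF + sRANKL, against 209.1, 336.5 and 334.7 with M-CSF alone, a 4.44-fold difference. Slc11a2, which moves iron out of endosomes, was 3.32-fold, Slc39a14, a zinc and iron importer, 2.66-fold, and Cp, the ferroxidase ceruloplasmin, 7.09-fold higher. Slc40a1, the iron exporter ferroportin, was at 0.328 and Trf, transferrin, at 0.293 of the M-CSF alone level. Acsl1, which activates long-chain fatty acids, was 3.56-fold, Scd2, a fatty acid desaturase, 2.94-fold, and Gch1, which makes tetrahydrobiopterin, 2.36-fold higher. Scd2 was uneven, with log2 differences of 2.39, 0.44 and 1.85 in Experiments 1, 2 and 3. By fold, Slc7a11 was above all 9.

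On the side of glutamate, 4 of 33 listed genes were named and all were higher, beside 341 of all 522 named genes. Ctps, which uses glutamine to make CTP, was 3.76-fold, Gria3, a glutamate receptor subunit, 2.73-fold, and Ppat, the glutamine-using first enzyme of purine synthesis, 2.46-fold higher, with Asns as the fourth. All 4 named genes of 24 for reactive oxygen and nitric oxide were also higher, with Aoah, a lipase that inactivates endotoxin, at 7.36-fold, Ass1, which regenerates arginine, at 4.88-fold, Mpo, myeloperoxidase, at 2.49-fold, and Arg2, an arginase, at 2.38-fold. Mpo is also a marker of granulocyte precursors. Aoah makes neither superoxide nor nitric oxide.

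Among the named solute carrier genes, Slc7a11 had the largest log2 difference. There were 18 of them, 13 higher and 5 lower, with a median log2 difference of 1.35. Over all 522 named genes, 341 were higher and the median was 1.17, so the counts say nothing particular about carriers. The next highest after Slc7a11, with 3.11, was Slco4a1, an organic anion transporter, with 1.93, and the log2 differences of Slco4a1 were 2.34, 2.02 and 1.44 in Experiments 1, 2 and 3. Slc7a11 was above it in every experiment. Slc2a1, the glucose transporter GLUT1, was 3.33-fold, Slc6a12, a betaine carrier, 3.26-fold, the lactate carriers Slc16a1 and Slc16a3 were 3.13-fold and 2.54-fold, the phosphate carrier Slc20a1 was 2.81-fold, Slc31a2, a copper carrier, 2.54-fold, and Slco3a1, an organic anion transporter, 2.07-fold higher. Beside ferroportin, the carriers that were lower were Slc26a11 at 0.407, Slc46a3 at 0.248, Slc9a7 at 0.221 and Slco2b1 at 0.179 of their level with M-CSF alone. These folds are ratios within a probe set, and levels of different carriers were not compared.

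**Figure D3:**
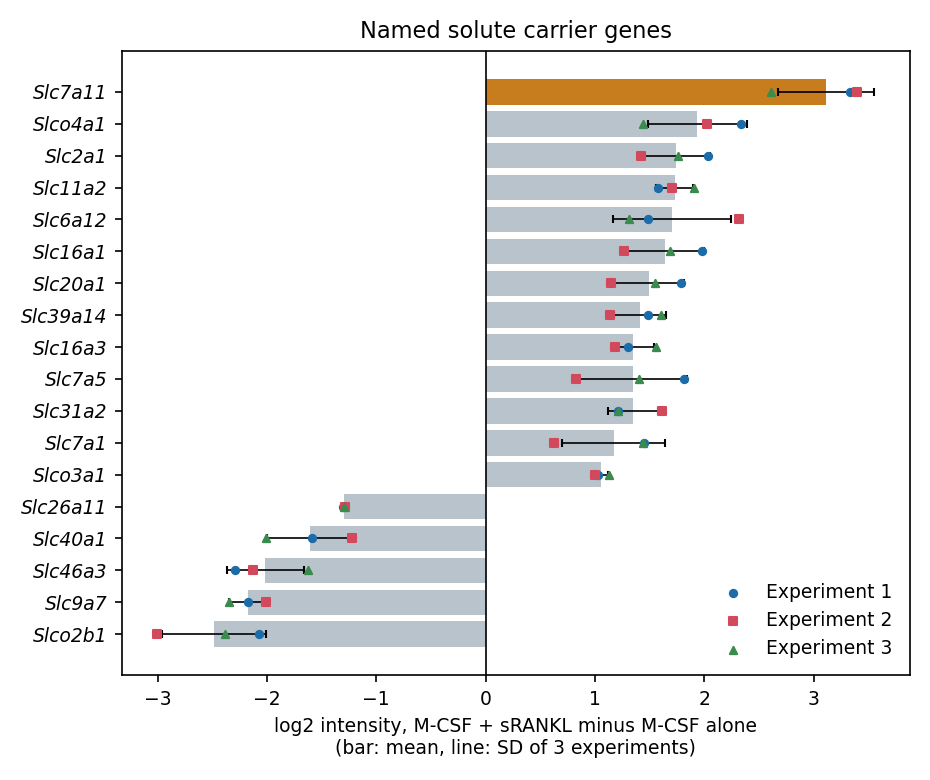
Mean log2 intensity of M-CSF + sRANKL minus M-CSF alone (horizontal axis, bars from 0) for the 18 named solute carrier genes (rows), with lines for the SD and points for each of 3 experiments. Slc7a11, in orange, has a mean of 3.11, the next, Slco4a1, 1.93, and 5 genes lie below 0.

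The genes whose log2 intensity followed Slc7a11 most closely over the 6 arrays were Gbp5 (Pearson r of 0.999), Fscn1 (0.997), Ppif (0.997), Cd274 (0.996), Cst7 (0.996), Tnfrsf10b (0.996), Ccr7 (0.995), Dio2 (0.995), Gcnt2 (0.995) and Ptges (0.994), of 521 compared. The points share arrays, pools of cells and the contrast by which every gene was named, so high values were common. The median r over the 340 other named genes that were higher was 0.955, and 184 genes had an r of at least 0.95. Fscn1, the actin-bundling protein fascin, had intensities of 1298, 1175 and 644.2 with M-CSF + sRANKL, against 164.6, 99.19 and 123.4 with M-CSF alone. Its order over the 6 arrays was that of Slc7a11. Fold differences of the 10 genes ran from 2.12 for Tnfrsf10b, a death receptor, to 7.87 for Fscn1, with Cst7, an inhibitor of cathepsins, at 7.74, Cd274, the ligand of PD-1, at 5.97, Dio2, a deiodinase that activates thyroid hormone, at 5.59, Ccr7, a chemokine receptor of migrating dendritic cells, at 5.25, and Ptges, the prostaglandin E synthase, at 4.66. Gcnt2, a glycosyltransferase, was at 2.38, Gbp5, a guanylate-binding protein induced by interferon, at 2.27, and Ppif, the mitochondrial cyclophilin, at 2.13.

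With the difference between the groups removed, the likeness rests on how arrays of a group deviate from their mean. The r of these deviations with Slc7a11 was 0.973 for Gbp5, 0.971 for Ppif, 0.967 for Ccr7, 0.963 for Dio2 and 0.957 for Fscn1, and the other 5 genes were between 0.859 and 0.929. The median over the named genes that were higher was -0.0128. The 10 genes were chosen by r over the same 6 arrays, a measure that contains these deviations. High values were therefore favoured by the choice and are no separate support for the likeness. Of the 10 genes, 5 were also among the 10 closest by these deviations. With only 6 arrays in 3 pools, these values describe the arrays and carry no p.

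The 8 named osteoclast markers did not share 1 profile across the experiments. The log2 differences of Acp5, which encodes the osteoclast acid phosphatase TRAcP, were 2.81, 4.17 and 3.40 in Experiments 1, 2 and 3, those of Ctsk 2.58, 3.70 and 3.23, and those of Mmp9, a gelatinase, 2.95, 4.79 and 4.21. With Itgb3, the beta chain of the vitronectin receptor, and Jdp2, these made 5 markers that were smallest in Experiment 1. Those of Atp6v0d2, a subunit of the proton pump, were 1.61, 2.38 and 1.15, those of Car2, a carbonic anhydrase, 1.62, 1.56 and 1.22, and those of Tm4sf19, a membrane protein, 1.24, 1.27 and 0.76, and these 3 were smallest in Experiment 3, as was Slc7a11. The r of deviations with Slc7a11 was likewise spread, at 0.840 for Itgb3, 0.758 for Car2, 0.589 for Atp6v0d2, 0.413 for Acp5, 0.327 for Tm4sf19, 0.301 for Mmp9, -0.0474 for Ctsk and -0.583 for Jdp2. For the other ATF4-listed genes it was -0.611 for Asns, -0.580 for Mthfd2, -0.0588 for Slc7a1 and -0.0134 for Slc7a5. Over the 341 named genes that were higher, the smallest difference fell in Experiment 1 for 124, in Experiment 2 for 123 and in Experiment 3 for 94. No experiment was thus low for all genes. The plot of profiles by experiment sets Slc7a11 beside the 3 kinds of gene.

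**Figure D4:**
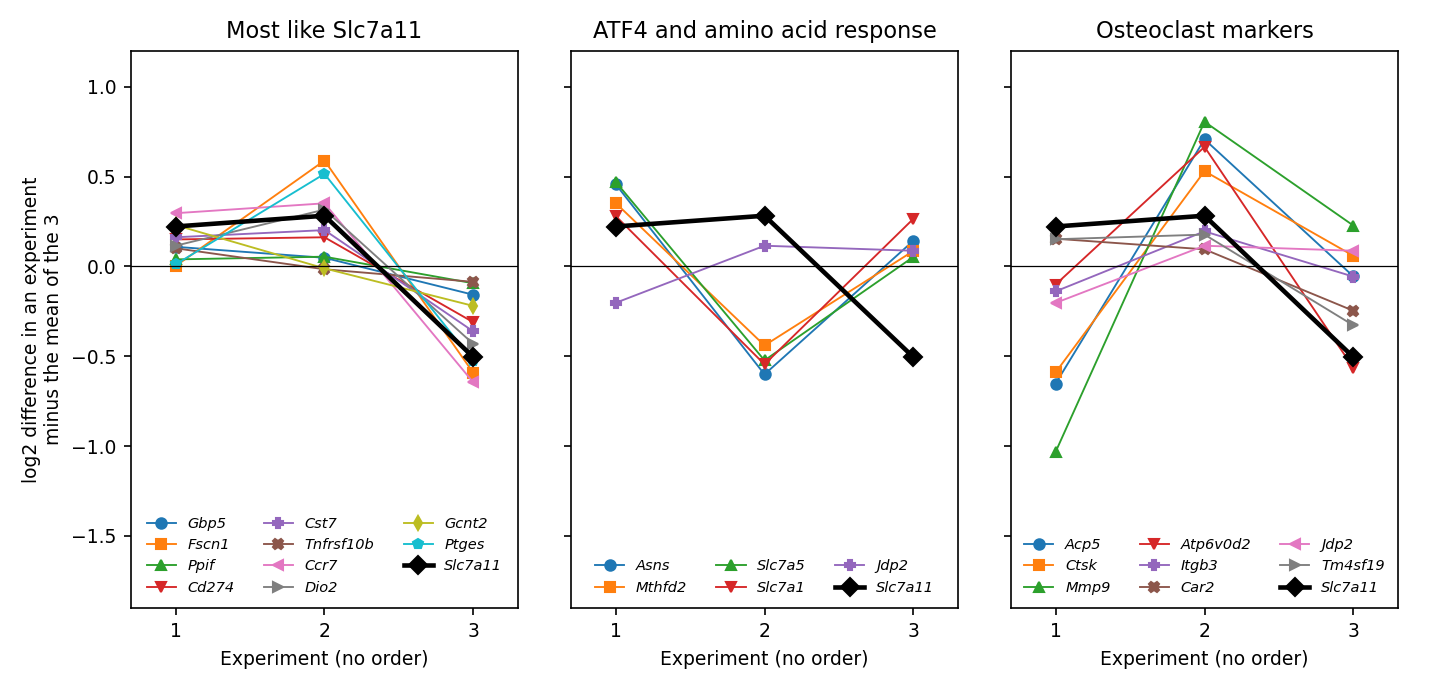
Log2 difference of M-CSF + sRANKL over M-CSF alone in an experiment, minus the mean of the 3 (vertical axis), by experiment (horizontal axis, no order), for Slc7a11 (black) with the 10 genes most like it (left), the 5 other named ATF4 and amino acid response genes (middle) and the 8 named osteoclast markers (right). Slc7a11 is low in Experiment 3, as are 3 osteoclast markers, while 4 of the 5 amino acid response genes are lowest in Experiment 2 and 5 of the 8 osteoclast markers in Experiment 1.

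Named cell type markers also differed between the groups, as every named gene had to. For comparison, 341 of the 522 named genes were higher. Of all rows, 44.9% were called higher and 33.2% lower. Of 20 osteoclast markers, 8 were named and all 8 were higher, with summed intensities of 6484 to 8776 with M-CSF + sRANKL, against 1206 to 1500 with M-CSF alone. Of 24 macrophage and monocyte markers, 4 were named, of which 3, Ccr2 and Apoe among them, were lower and Aif1 was higher, with sums of 4299 to 5849 with M-CSF + sRANKL, against 15910 to 18300 with M-CSF alone. Apoe alone, at 12750, 9770 and 12280 with M-CSF alone in Experiments 1, 2 and 3, made up most of the sum of that group. The defining macrophage markers Csf1r and Adgre1 are not named and were not analysed here. Of 20 neutrophil and granulocyte precursor markers, 5 were named (Mpo, Prtn3, Ctsg, Stfa1 and Stfa2), all higher, with sums of 5291 to 8529 with M-CSF + sRANKL, against 1473 to 2239 with M-CSF alone. Of 35 lymphoid, erythroid, mast cell and stromal markers, 4 were named (Ccl5, Ppbp, Dcn and Pecam1), all higher, with sums of 5036 to 7253 with M-CSF + sRANKL, against 851.3 to 1640 with M-CSF alone. Most of these last sums came from Ccl5 and Ppbp. Whether these 4 genes mark such cells in the cultures was not tested. No value was at 0 in any array. The part of any of the listed cell types in the Slc7a11 difference was not tested.

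The Slc7a11 probe set is 10498024 (Entrez 26570), placed by the authors' list on the minus strand of chromosome 3, from 49696436 to 50247535, with no build given in the sources used here. This span of 551100 bases is longer than the RefSeq gene, which has 134152 bases on GRCm38.p6, and it overlapped 0 other named probe sets. As numbered, it also does not overlap that gene, which RefSeq places from 50364936 to 50499087, so coordinates of the list and of GRCm38.p6 were not joined, and the gene name rests on the Entrez number. The RefSeq gene reaches past the start whose promoter is shown above, so that start is not the outermost one annotated. Which exons its probes cover was not analysed here, so its intensity is a value for the gene as a whole. Median log2 intensities of the arrays were 8.32 to 8.53 with M-CSF + sRANKL and 8.16 to 8.44 with M-CSF alone. After each array was centred on its median, the log2 difference of Slc7a11 was 2.98, and after quantile normalization 2.94, and its rank among the named genes was 24 and 22.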

How the data were processed

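Gene expression was measured in 6 samples, 3 per group. According to the submitters' processing notes the authors applied RMA in R 2.71 to the array scans, and the deposited values are linear intensities for 2890 probe sets. RMA corrects background, equalises arrays by quantiles and summarises probes, which compresses differences of dim probe sets. How the 2890 were selected is not given in the sources used here. Symbols come from the authors' deposited list of 656 changed probe sets, whose means, folds, standard errors and p-values were not used. Of 553 listed symbols, 547 matched a RefSeq table (GRCm38.p6) through the Entrez number and 62 were updated. For 12 of 522 named genes with several probe sets, that of the highest mean was kept, which left 2859 rows. Slc7a11 had 1 probe set.

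The difference of M-CSF + sRANKL over M-CSF alone was fitted on log2 intensities by limma 3.58.1 (R 4.3.3) with no block. Adjustment followed Benjamini-Hochberg over all 2859 rows, with calls at 0.05. Summaries used Python 3.11.15 with numpy 2.4.6 and pandas 2.3.3, and plots matplotlib 3.10.9. Tested on simulated data with 200 changed rows of 2859, the fit recovered 74% at 2-fold and 98% at 4-fold, with 11 false calls. The simulated arrays had independent noise, without likeness between dishes of a pool, and far fewer changed rows than were called here. These figures check the code and do not give the error rates on these data. Arrays give no read depth, and their number, 3 per group, limits the precision. With no block, the p-values set the difference of the groups against the spread between arrays of a group. That spread includes what the 2 dishes of a pool share. The p-values do not measure how the difference varied between experiments.

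Dishes of an experiment came from 1 pool of cells, so experiment numbers pair the samples. The 2 dishes of a pool deviated together from their group means, with r of 0.605 in Experiment 1, 0.564 in Experiment 2 and 0.645 in Experiment 3.

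The genes named are Slc7a11, the named members of 13 gene lists, solute carrier genes (Slc and Slco symbols), the 10 genes with the highest Pearson r to Slc7a11, 3 neighbours on each side by fold and the entries beside the 2-fold limit, though some genes under this rule are not reported here. The gene and the lists were chosen with earlier results of these data known. Motifs were searched on both strands of the 250 bases before each RefSeq start. The alternatives were the experiment as a fixed or random block, median centring, quantile normalization, filters on mean log2 intensity, limma-trend, the methods' t-test, all probe sets, leaving out each array, and other measures of likeness.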

Additional observations from a re-analysis of the deposited data

How the results depend on the processing

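The log2 difference of Slc7a11 was between 2.87 and 3.38 over 10 alternatives, against 3.11, and its rank among named genes was between 18 and 31 over 8, against 24. Leaving out the sRANKL array of Experiment 1 gave 2.87 and that of Experiment 3 gave 3.38. With the experiments paired as a replicate block the difference was 3.11, since the means are the same, and limma called 1475 probe sets higher and 1138 lower (fixed block) or 1436 and 1125 (random block), against 1285 and 950 without a block. Over 17 alternatives the calls were between 927 and 1475 higher and between 445 and 1138 lower. The value of 445 lower came from the filter at a mean log2 intensity of 8, which tests fewer rows. Counting rows with identical values once, chosen after seeing the data, gave 1283 higher and 835 lower. The 23 higher and 11 lower pathway genes stayed called in all 4 alternatives run on them. They were named because they differed in this contrast, so this was favoured by the selection and is no separate support. Of the 10 genes most like Slc7a11, 7 remained after median centring, 5 with deviations from group means and 4 with Spearman's rho, where 12 genes were tied at the highest value. The mean of several probe sets could not be tried for Slc7a11, which has 1. Scaling moved the Slc7a11 difference by less than the SD between experiments. With 3 arrays per group and no detection calls, the fold of Slc7a11 was not set against the background of the array.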
